A study of Macaca mulatta with 18 samples.

Results

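The kinesin genes were followed in fetal brain of rhesus macaque (Macaca mulatta) at embryonic day 84, in the 2 kinds of tissue that the labels name GZ and CP. All animals are labelled wild type and the tissue is given as brain; the abbreviations are not spelled out in the labels and are kept here. The RNA table held 3 libraries per tissue, numbered 1 to 3, among 18 samples of the series. A gene was taken as a member when its macaque symbol began with KIF followed by a digit or C, or with KLC, which gave 41 of the 22345 genes in the table, 14700 of which have a symbol. By their textbook roles, 12 were classed as mitotic kinesins, 19 as cargo-transport kinesins with their light chains, and 10 as other kinesins. KIF1B, KIF2B, KIF7, KIFC1 and KIF17 are not analysed here.

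Kinesins are motor proteins that use ATP to walk along microtubules or to shorten them. Dividing cells use one set of them to build the spindle, move chromosomes and complete cytokinesis. Neurons, which no longer divide, use another set to carry vesicles, mitochondria and receptors into axons and dendrites, most of them towards the plus ends of microtubules. Kinesin-1, the classical cargo motor, joins KIF5 heavy chains with KLC light chains that help to hold the cargo.

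Values are log2 FPKM, a read density per gene length and per library size, which the authors had normalized with cqn. Library medians ran from 1.82 to 1.87 over all genes, and read depth is unknown because the values carry no read totals. A gene was tested with limma when its average of the 6 libraries reached 0, and a gene is called when its adjusted p was under 0.05. Of the 41 kinesin genes, 36 were tested: 11 mitotic, 17 cargo-transport and 8 others. The titles give the CP and GZ libraries of the same number a shared identifier, but the labels do not say that it names an animal. The main fit did not pair them. Nothing in the labels ties a library to an animal of its own. The p-values therefore rest on how far libraries of a tissue scatter, which may in part be technical. The libraries numbered 1 stand apart: the median of 10 Y-linked genes was 1.40 in CP and -0.17 in GZ of number 1, against 3.34 and 3.63 in number 2 and -1.78 in both tissues of number 3 (log2). Counts of called kinesins are therefore also given without both libraries numbered 1. The tissue labels were checked with marker genes: MKI67 and TOP2A, which mark dividing cells, were 4.24-fold and 3.88-fold higher in GZ, and NEFL and NEUROD6, which mark neurons, were 10.4-fold and 9.52-fold higher in CP. These 2 are among the largest differences of 10 neuronal markers, of which 7 were higher in CP, against 20.9% of all genes tested. TUBB3 was 1.18-fold higher in GZ, and DCX and MAP2 were not called.

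All 11 mitotic kinesins tested were higher in GZ, and 0 of the 17 cargo-transport genes were, by limma and also at an unadjusted p under 0.05. In the mitotic class the differences ran from 0.75 to 2.37 on the log2 scale, or 1.68-fold to 5.17-fold. Of the cargo-transport genes, 8 were higher in CP by 1.29-fold to 3.18-fold and 9 were not called. Of all 13460 genes tested, 45.4% were called, 24.5% in favour of GZ and 20.9% in favour of CP. A difference of at least 1 on the log2 scale was found for 10 of 11 mitotic kinesins in GZ, against 5.41% of all genes, and for 4 of 17 cargo-transport genes in CP, against 7.04%. The median difference, GZ minus CP, was 1.84 in the mitotic class, -0.37 in the cargo-transport class and 0.05 over all genes. Without both libraries numbered 1 the counts were 10 of 11 mitotic genes higher in GZ and 7 of 17 cargo-transport genes higher in CP; the 2 calls lost were KIF22 (adjusted p = 0.0510) and KIF3C (adjusted p = 0.0832).

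**Figure D1:**
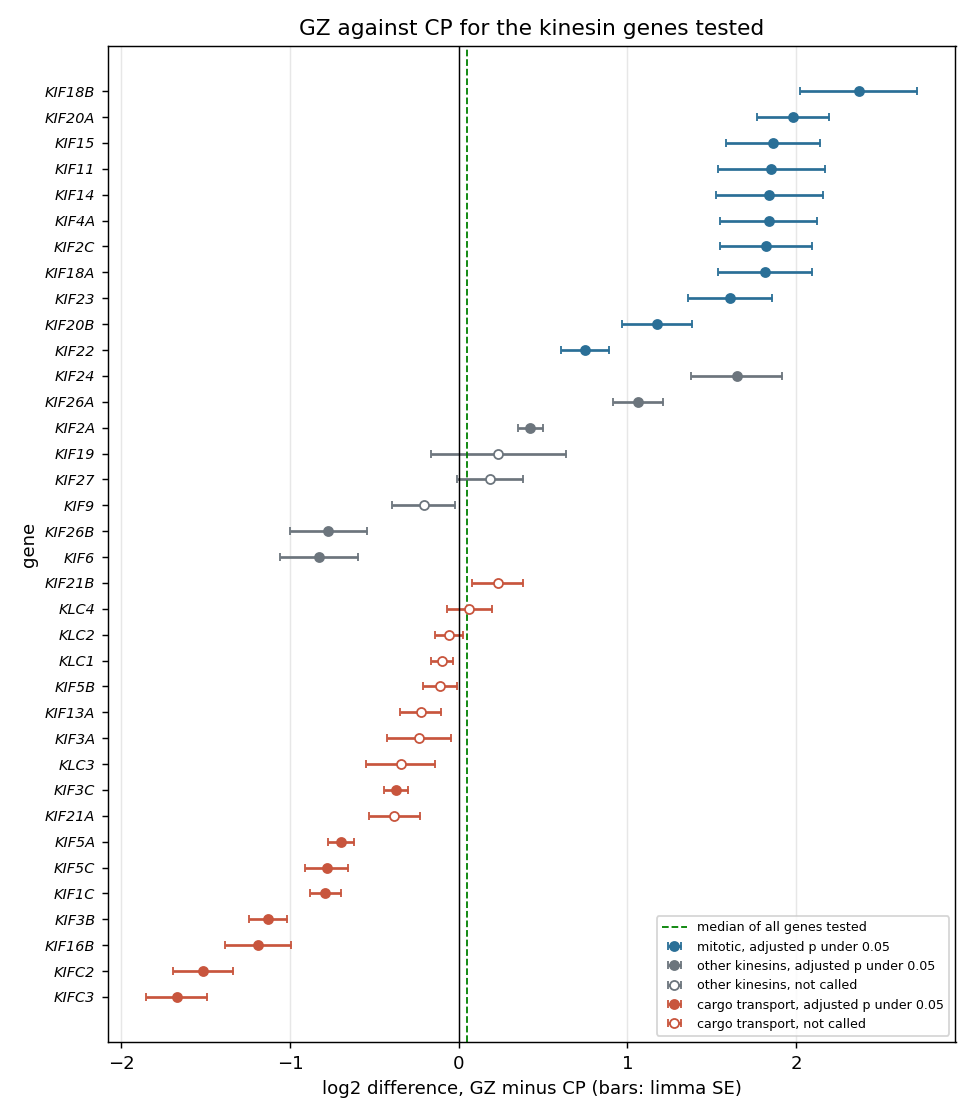
Log2 difference, GZ minus CP, for the 36 kinesin genes tested, with bars of 1 limma standard error (SE). Filled points have an adjusted p under 0.05, and the dashed line is the median of all genes tested (0.05). The 11 mitotic genes lie between 0.75 and 2.37, and the 8 called cargo-transport genes between -1.67 and -0.37.

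The motors that build and hold the bipolar spindle were about as different between the tissues as the class median. KIF11 (ENSMMUG00000023266), the motor that slides spindle microtubules apart, had log2 values of 3.19, 2.14 and 2.70 in CP numbers 1, 2 and 3 and of 4.63, 4.98 and 3.98 in GZ. KIF15 (ENSMMUG00000023151), which helps to keep the spindle bipolar beside KIF11, had 3.08, 2.09 and 2.32 in CP and 4.33, 4.73 and 4.02 in GZ. For both genes the lowest GZ library lay above the highest CP library, and the smallest gap was between CP number 1 and GZ number 3. The differences were 1.85 ± 0.31 for KIF11 (SE, n = 3 per tissue, limma adjusted p = 0.00261) and 1.86 ± 0.28 for KIF15 (adjusted p = 0.00151). KIF2C, a kinesin that shortens microtubules at kinetochores, was 1.98 ± 0.30 in CP and 3.80 ± 0.53 in GZ on the log2 scale (SD), or 3.53-fold higher in GZ.

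Among kinesins of the chromosomes and of chromosome alignment, KIF18B had the largest difference in the class and KIF22 the smallest. KIF18B (ENSMMUG00000013113), which shortens the astral microtubules of the spindle, had log2 values of 1.27, 0.24 and 0.71 in CP and 3.28, 3.57 and 2.47 in GZ. The tissues did not overlap, and the difference was 2.37 ± 0.35 (SE, adjusted p = 0.00141), or 5.17-fold. Its relative KIF18A, which damps the swings of chromosomes at the metaphase plate, was 3.52-fold higher in GZ. KIF4A (ENSMMUG00000013940), a chromosome-bound motor that also acts at the central spindle, had 2.29, 1.55 and 1.55 in CP and 3.58, 4.14 and 3.19 in GZ. All GZ libraries of KIF4A were above all CP libraries, with a difference of 1.84 ± 0.29 (SE, adjusted p = 0.00186). KIF4B, a near-identical copy of KIF4A that may share reads with it, had a mean of -2.44 in CP and -2.04 in GZ and was not tested because of its low level. KIF22, another chromosome-bound motor, was 4.84 ± 0.12 in CP and 5.59 ± 0.28 in GZ (SD), a difference of 0.75 ± 0.14 (SE, adjusted p = 0.00422). It was the most abundant mitotic kinesin in both tissues, at 28.7 FPKM in CP and 48.3 FPKM in GZ (2 to the power of the mean log2 value).

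The kinesins of cytokinesis were also all higher in GZ. KIF20A (ENSMMUG00000001511), which carries the chromosomal passenger complex to the central spindle, had log2 values of 1.62, 1.11 and 1.50 in CP and 3.51, 3.65 and 3.02 in GZ. Its difference of 1.98 ± 0.22 had the lowest adjusted p of the class (0.000417). KIF14 (ENSMMUG00000004266), which acts at the midbody, had 0.76, -0.05 and 0.65 in CP and 2.32, 2.77 and 1.78 in GZ. The values of KIF14 did not overlap between tissues, and the difference was 1.84 ± 0.32 (SE, adjusted p = 0.00270). KIF23, the motor of the centralspindlin complex, was 3.05-fold higher in GZ. KIF20B, a cytokinesis motor of the same family as KIF20A, was 2.26-fold higher, the second smallest fold of the class.

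**Figure D2:**
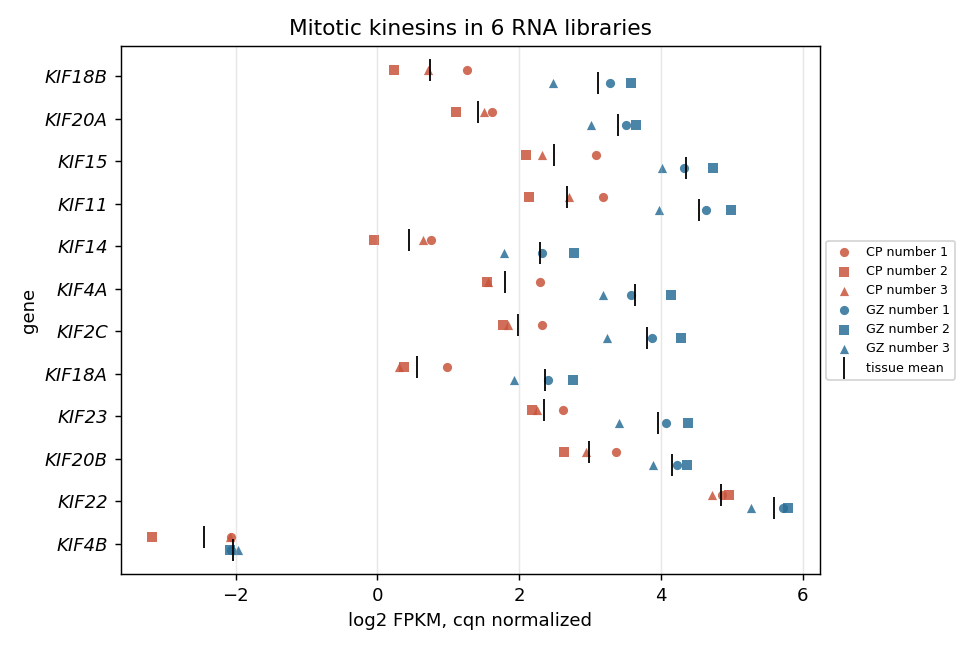
Log2 FPKM of the 12 mitotic kinesins in each of the 6 libraries, with CP in red and GZ in blue, marker shapes for library numbers and black bars for tissue means. For the 11 genes tested every GZ library lies to the right of every CP library, and KIF4B lies at -1.96 or lower throughout.

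The mitotic kinesins shared an order of libraries within each tissue. GZ number 2 was the highest and GZ number 3 the lowest GZ library for 11 of 11 genes. In CP, number 1 was the highest for 10 of 11 genes and number 2 the lowest for 9. How many of all genes share this order was not counted, and the 11 genes were measured in the same 6 libraries. The gap between GZ and CP libraries of one number had a median over the 11 genes of 1.45 in number 1, 2.54 in number 2 and 1.40 in number 3. The mean log2 level of MKI67 and TOP2A ran in the same order, with 4.17, 3.15 and 3.47 in CP numbers 1, 2 and 3 and 5.63, 6.10 and 5.11 in GZ. In bulk tissue, fewer cells of a type and less RNA per cell cannot be told apart.

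The mitotic kinesins were also set against these markers of dividing cells within each library. The measure was the level relative to the mean of MKI67 and TOP2A, whose own GZ minus CP difference was 2.02. On it the differences ran from -1.27 to 0.35 with a median of -0.18, and 10 of the 11 genes were lower in GZ. Any gene whose own difference is under 2.02 comes out lower in GZ on this measure, so that count restates the differences given above. The tissues overlapped for 6 genes and did not for 5, which were KIF18B, KIF20B, KIF22, KIF23 and KIF4A. This count was not made over all genes, so it does not set these 5 apart. On the plain log2 values, GZ lay wholly above CP for 30.9% of all genes tested and CP wholly above GZ for 25.5%. KIF22 was 1.25 ± 0.56 log2 units above the marker mean in CP and -0.02 ± 0.26 from it in GZ (SD, n = 3). KIF20B was -0.62 ± 0.16 in CP and -1.46 ± 0.26 in GZ relative to the markers. KIF18B was -2.86 ± 0.08 in CP and -2.51 ± 0.15 in GZ, and was the gene of the 11 whose level relative to the markers was higher in GZ. These relative values are descriptions and were not tested.

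Genes that work with the mitotic kinesins moved with them. Of 17 measured partners, 14 were higher in GZ and none higher in CP, against 24.5% and 20.9% of all genes tested. CDCA8, a subunit of the chromosomal passenger complex, was 4.20-fold higher, and its kinase AURKB 3.94-fold. The kinetochore gene NDC80 was 3.77-fold and the spindle gene NUSAP1 3.73-fold higher in GZ. The 3 partners not called were CENPE, a kinesin of kinetochores whose symbol lies outside the rule (difference 1.08 ± 0.39, SE, adjusted p = 0.0507), PLK1 (0.21 ± 0.08, adjusted p = 0.0542) and PRC1 (-0.21 ± 0.11, adjusted p = 0.172). PRC1, the bundling protein that KIF4A binds at the central spindle, was 3.70 in CP and 3.49 in GZ.

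Cargo-transport kinesins were among the most abundant members in both tissues. Of the 17 tested, 9 lay above the 90th percentile of all genes by mean level, against 0 of the 11 mitotic kinesins. That percentile was taken over all 22345 genes, tested or not, so genes that passed the filter reach it more often. The untested cargo-transport genes KIF1A and KIF13B were at percentiles 9.55 and 24.9. The summed level of the 17 cargo-transport genes tested was 1255 to 1321 FPKM per library in CP and 900.0 to 1026 FPKM in GZ. That of the 11 mitotic kinesins tested was 62.4 to 82.1 FPKM in CP and 135 to 230.1 FPKM in GZ. CP lay wholly above GZ for 11 of 17 cargo-transport genes, against 25.5% of all genes tested, and GZ wholly above CP for none, against 30.9%.

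Of the 3 kinesin-1 heavy chains, 2 were higher in CP, against 20.9% of all genes tested. Differences between paralogs were not tested. KIF5C (ENSMMUG00000009268), a heavy chain enriched in neurons, had the highest mean level of all members, with log2 values of 7.96, 7.79 and 7.91 in CP and 7.14, 6.83 and 7.34 in GZ. The tissues did not overlap for KIF5C, and it was 1.72-fold higher in CP (difference -0.78 ± 0.13, SE, adjusted p = 0.00209). KIF5A, the neuron-specific heavy chain, was 6.68, 6.75 and 6.67 in CP and 5.94, 5.94 and 6.13 in GZ, 1.62-fold higher in CP (adjusted p = 0.000431). KIF5B, the heavy chain found in most cell types, was 6.80, 6.61 and 6.96 in CP and 6.80, 6.65 and 6.58 in GZ, so that the tissues overlapped (difference -0.11 ± 0.10, adjusted p = 0.406). As a share of the summed FPKM of the 3 heavy chains, KIF5B made up 24.5% ± 1.9 in CP and 33.7% ± 3.9 in GZ (SD, n = 3), and KIF5C 52.4% ± 1.3 and 45.2% ± 4.1. The KIF5A share was 23.1% ± 1.8 in CP and 21.0% ± 1.4 in GZ. The sum itself was 452 ± 22 FPKM in CP and 306 ± 27 FPKM in GZ.

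The 4 light chains of kinesin-1 were not called by limma in either direction, and 0 of them had an unadjusted p under 0.05. Over all genes tested, 45.4% were called. KLC1, the most abundant light chain, was 7.27 ± 0.05 in CP and 7.17 ± 0.03 in GZ on the log2 scale (SD), with CP wholly above GZ by a small margin (difference -0.10 ± 0.06, SE, adjusted p = 0.243). KLC2 differed by -0.06 ± 0.08, KLC4 by 0.06 ± 0.13 and the low-level KLC3 by -0.34 ± 0.20. The make-up of the light chains was similar by value: KLC1 gave 62.3% ± 3.1 of their summed FPKM in CP and 61.0% ± 2.6 in GZ, and KLC2 21.6% ± 0.9 and 21.8% ± 1.0. Their sum was 248 ± 7.2 FPKM in CP and 236 ± 5.0 FPKM in GZ.

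Within kinesin-2, which carries cargo in neurons and in cilia, KIF3B was called and its partner KIF3A was not; the difference between the 2 genes was not tested. KIF3B (ENSMMUG00000012897) had log2 values of 6.41, 6.21 and 6.44 in CP and 5.23, 5.02 and 5.42 in GZ. It was 2.19-fold higher in CP (difference -1.13 ± 0.11, SE) and had the lowest adjusted p of all members (0.000300). KIF3A, which pairs with either KIF3B or KIF3C, was 5.18 ± 0.28 in CP and 4.95 ± 0.33 in GZ (SD), and the tissues overlapped (adjusted p = 0.352). KIF3C, a motor enriched in neurons, was 1.29-fold higher in CP. The KIF3B share of the summed kinesin-2 FPKM was 33.1% ± 0.1 in CP and 22.2% ± 1.4 in GZ, and the KIF3A share 14.7% ± 1.6 and 18.5% ± 2.5. KIFAP3, the accessory subunit that joins KIF3A and KIF3B to cargo, was 1.41-fold higher in CP (-0.49 ± 0.10, adjusted p = 0.00629).

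**Figure D3:**
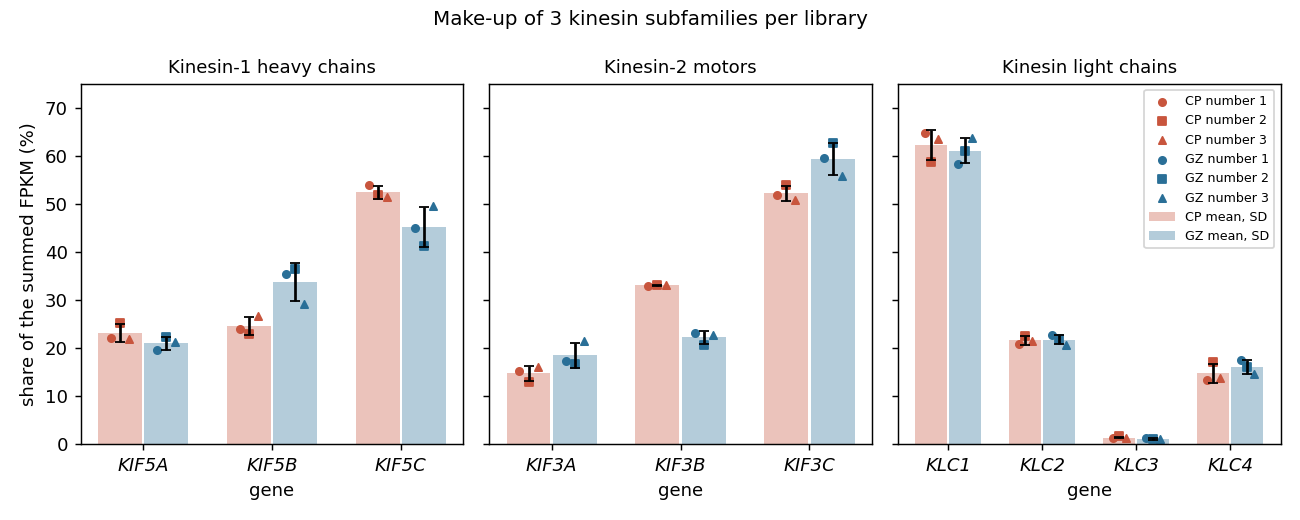
Share of each paralog in the summed FPKM of its subfamily, in percent, for kinesin-1 heavy chains, kinesin-2 motors and light chains. Bars are means of 3 libraries with SD, and points are single libraries. KIF5B is at 24.5% in CP and 33.7% in GZ, KIF3B at 33.1% and 22.2%, and KLC1 at 62.3% and 61.0%.

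The cargo-transport genes with the largest differences were the minus-end-directed motors KIFC3 and KIFC2. KIFC3 (ENSMMUG00000015696), linked to Golgi and cell-junction traffic, had log2 values of 4.16, 4.33 and 3.85 in CP and 2.57, 2.61 and 2.14 in GZ. KIFC2 (ENSMMUG00000002661), a motor of neurons, had 6.45, 7.19 and 6.69 in CP and 5.41, 5.13 and 5.23 in GZ. Neither gene overlapped between tissues, and every gap exceeded 1 log2 unit. KIFC3 was 3.18-fold higher in CP (-1.67 ± 0.18, SE, adjusted p = 0.000390) and KIFC2 2.86-fold (-1.52 ± 0.18, adjusted p = 0.000550).

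Kinesin-3 motors carry synaptic vesicle precursors and endosomes. KIF16B (ENSMMUG00000009658), a motor of early endosomes, had log2 values of 2.31, 2.66 and 2.50 in CP and 1.58, 1.04 and 1.27 in GZ. KIF1C (ENSMMUG00000011341), which carries vesicles from the Golgi and to cell edges, had 4.61, 4.49 and 4.54 in CP and 3.75, 3.69 and 3.83 in GZ. Both were wholly above GZ in CP, KIF16B by 2.28-fold (adjusted p = 0.00218) and KIF1C by 1.73-fold (adjusted p = 0.000515). KIF13A, a motor of recycling endosomes, was not called (-0.22 ± 0.12, adjusted p = 0.171). KIF1A, best known as the axonal motor of synaptic vesicle precursors, was listed very low, at -4.31, -2.54 and -2.26 in CP and -2.23, -2.40 and -2.40 in GZ. Only 9.55% of all genes had a lower mean, so KIF1A was not tested, and with no filter its adjusted p was 0.404. No source used here gives the transcript model behind that row, and 34.2% of the rows have no symbol, so the low value describes this row and no more. KIF13B was likewise low, at -2.29 ± 0.30 in CP and -1.48 ± 0.18 in GZ (SD), with GZ wholly above CP and an adjusted p of 0.0834 in the fit with no filter.

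KIF21A and KIF21B, which act in neuronal traffic and restrain microtubule growth, were high in both tissues and not called. KIF21B was 7.07, 6.70 and 7.29 in CP and 7.16, 7.16 and 7.44 in GZ, with an overlap between tissues and an adjusted p of 0.245. KIF21A was 5.34 ± 0.04 in CP and 4.96 ± 0.32 in GZ (SD), with all CP values above all GZ values (-0.38 ± 0.15, SE, adjusted p = 0.0716). Without GZ number 3, its highest GZ library, KIF21A was called higher in CP (-0.54, adjusted p = 0.00835).

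**Figure D4:**
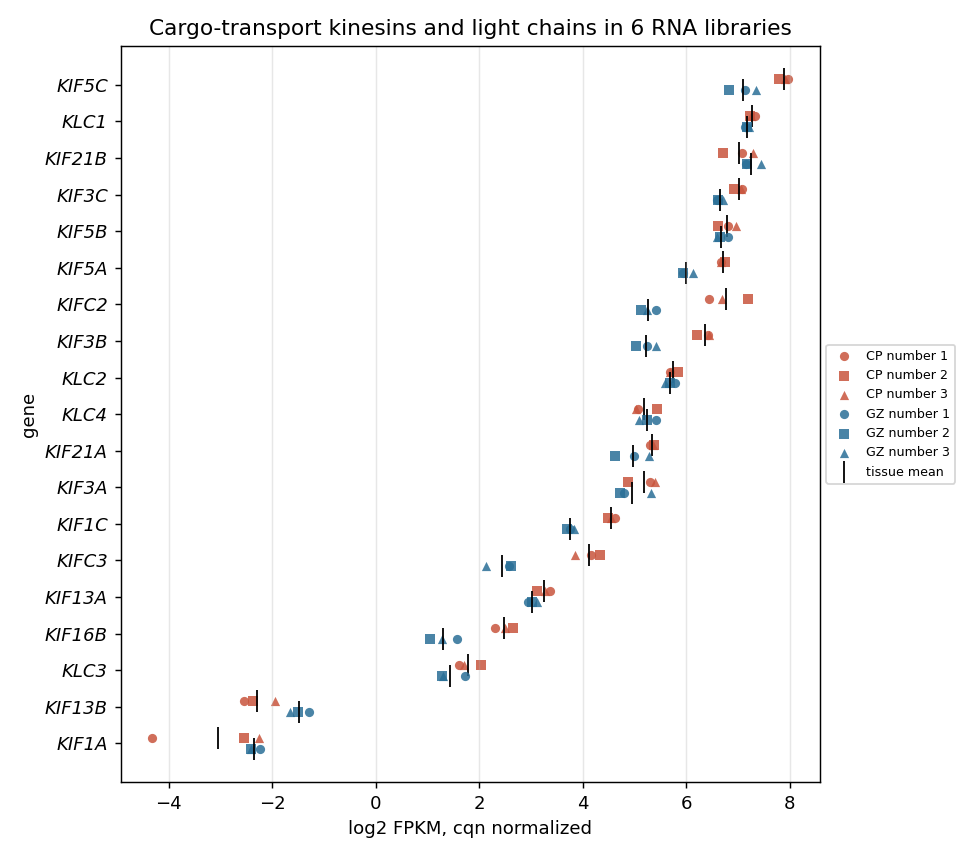
Log2 FPKM of the 19 cargo-transport kinesins and light chains in each of the 6 libraries, sorted by mean level, with CP in red, GZ in blue and black bars for tissue means. KIF5C is the highest at 6.83 to 7.96, and KIF1A and KIF13B lie at -1.29 or lower in every library.

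Most markers of neurons and all measured markers of blood vessels moved with the called cargo-transport genes. The summed level of the 10 neuronal markers was 2717 to 2965 FPKM in CP and 1812 to 2051 FPKM in GZ. All 6 measured endothelium and pericyte markers were higher in CP, with summed levels of 96.7 to 137 FPKM in CP and 22.5 to 49.4 FPKM in GZ. All 3 measured interneuron markers were higher in GZ, with sums of 147 to 171 FPKM in CP and 343 to 463 FPKM in GZ. Over all genes tested, 20.9% were higher in CP and 24.5% in GZ. Of 3 progenitor markers, PAX6 and NES were higher in GZ, and VIM was not called but had all CP values above all GZ values, a mean of 6.98 against 6.78 and an unadjusted p under 0.05. Both red cell markers were higher in CP. In the oligodendrocyte lineage OLIG2 was higher in GZ and CSPG4 in CP. The 3 microglia, 2 astrocyte and 3 meningeal markers tested and FOXJ1 of the ependyma were not called by limma. Of the meningeal markers, 2 had an unadjusted p under 0.05, in opposite directions: LUM was higher in CP (-1.07) and DCN in GZ (0.44). The part of these cell types in the kinesin differences was not tested.

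Of the 8 other kinesins tested, 3 were called in favour of GZ, 2 in favour of CP and 3 not at all. These shares, 37.5% and 25%, are near the 24.5% and 20.9% of all genes tested, given the small number of genes. KIF24 (ENSMMUG00000018726), a centriole protein that restrains cilium assembly, had log2 values of 0.94, 0.18 and 0.41 in CP and 2.12, 2.53 and 1.82 in GZ. Its order of libraries was that of most mitotic kinesins, with CP number 1 and GZ number 2 on top of their tissues. KIF24 was 3.13-fold higher in GZ (1.65 ± 0.27, SE, adjusted p = 0.00228). KIF26A (ENSMMUG00000009477), an atypical kinesin without ATP-driven movement, had 4.68, 4.17 and 4.72 in CP and 5.52, 5.60 and 5.64 in GZ. The GZ values of KIF26A lay close together and above all CP values, at 2.09-fold the CP level (1.06 ± 0.15, adjusted p = 0.00112). KIF2A, a microtubule-shortening kinesin of both spindles and growing neurites, was high in both tissues and 1.34-fold higher in GZ (6.55 ± 0.11 against 6.97 ± 0.03, SD, adjusted p = 0.00311).

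KIF26B and KIF6 were higher in CP, and both calls depended on single libraries. KIF26B, the paralog of KIF26A, was 4.46 ± 0.22 in CP and 3.69 ± 0.46 in GZ (SD), 1.71-fold higher in CP (adjusted p = 0.0257). Its call was lost without CP number 1, CP number 3, GZ number 1 or GZ number 2, with adjusted p of 0.0728, 0.0873, 0.0722 and 0.0608, and without both libraries numbered 1 (0.153). KIF6 (ENSMMUG00000013651), a kinesin of motile cilia, had log2 values of 0.78, 1.05 and 0.79 in CP and 0.34, -0.18 and -0.02 in GZ. The CP level was 1.77-fold that of GZ (adjusted p = 0.0215), and the call was lost without CP number 2 or GZ number 2 (adjusted p = 0.0696 and 0.0750). The cilium-linked KIF9, KIF19 and KIF27 were not called, with differences of -0.21 ± 0.19, 0.24 ± 0.40 and 0.19 ± 0.20 (SE). KIF12 and KIF25 had mean levels under 0 and were not tested. Without both libraries numbered 1, 4 of the 8 other kinesins were called, and without GZ number 2 it was 3.

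**Figure D5:**
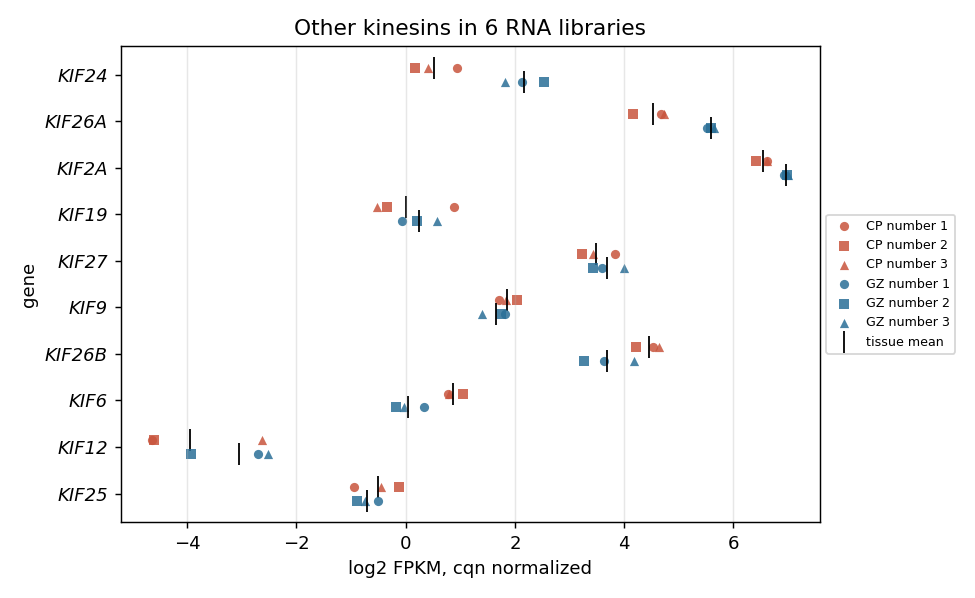
Log2 FPKM of the 10 other kinesins in each of the 6 libraries, with CP in red, GZ in blue and black bars for tissue means. KIF24, KIF26A and KIF2A have all GZ libraries to the right of all CP libraries, and KIF26B and KIF6 the reverse.

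Genes that link kinesins to cargo were called in both directions. Of 20 measured kinesin-1 adaptors and cargo partners, CP was higher for 7 (35%) and GZ for 2 (10%), against 20.9% and 24.5% of all genes tested. SYBU, the syntabulin gene, whose protein ties kinesin-1 to mitochondria and presynaptic cargo, was 11.2-fold higher in CP: its log2 mean was 7.11 in CP and 3.62 in GZ (difference -3.48 ± 0.12, SE, adjusted p = 9.26e-06). MAP7D2, which recruits kinesin-1 to microtubules, was 2.29-fold, FEZ2 1.77-fold and the cargo receptor CLSTN3 1.56-fold higher in CP. In the other direction the scaffold gene SPAG9 was 1.80-fold and MAP7D3 1.45-fold higher in GZ. The mitochondrial adaptors TRAK1, RHOT1 and RHOT2 were not called, with differences of 0.01 ± 0.11, -0.11 ± 0.09 and 0.00 ± 0.17. Of 8 measured kinesin-2 and kinesin-3 partners, 5 (62.5%) were higher in CP and 2 (25%) in GZ, with the liprin genes PPFIA3, PPFIA2 and PPFIA4 3.86-fold, 2.32-fold and 1.62-fold higher and KIFAP3 1.41-fold. The 2 higher in GZ were STARD9 (2.22-fold), a kinesin of centrosomes whose symbol lies outside the rule, and RAB3A (1.55-fold).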

How the data were processed

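RNA of 6 libraries was analysed: 3 of CP and 3 of GZ, grouped and numbered by sample title. The values are log2 FPKM that the authors normalized with cqn, per the labels; the submitters' processing notes list STAR and SAMtools and 2 builds, rheMac8 and Mmul_8.0.1, with no role. No source used here names the read counter or the annotation release. Hi-C, DNase and CTCF files were not used, since no annotation of their build was used to place genes among them. Symbols came from a reference table of gene names, which matched 14700 of 22345 identifiers (65.8%). Genes with a mean of 0 or more (13460) were tested with limma 3.58.1 in R 4.3.3 (lmFit, eBayes with trend, GZ minus CP, no block, no pseudocount), with Benjamini-Hochberg adjustment over all of them. Shares used 2 to the power of the value. On simulated data (13460 genes, 100 changed at each size), limma recovered 68% of genes changed by 1 log2 unit and 89% of those changed by 2, with 9 false calls. Far fewer genes were changed there than the 6113 called in the real data, so these rates need not hold for this comparison. Tables and plots were made with Python 3.11.15 and pandas 2.3.3.

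Members, classes and gene lists were chosen with earlier results of these data known. Every member is named. Values per library are given for the 6 called mitotic, 6 called cargo-transport and 3 called other genes with the largest differences, and for KIF5A, KIF5B, KIF21B and KIF1A, chosen after their values were seen. From partner lists, up to 4 called genes per direction are named. Some further partners, and those that were not called, were named after their values were seen. Alternatives were a replicate block, no filter or a stricter one, median centring or quantile normalization, a pseudocount of 1, limma without trend or robust, and fits without each library or without both libraries numbered 1.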

Additional observations from a re-analysis of the deposited data

How the results depend on the processing

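The 11 mitotic kinesins were called higher in GZ, and 8 cargo-transport genes higher in CP, with no filter, a filter at a mean of 1, a pseudocount of 1, median centring, quantile normalization, limma without trend and limma with trend and robust. With each library left out in turn, the mitotic count stayed at 11 and the cargo-transport count was 8 to 9, while the other kinesins had 3 to 5 calls. No mitotic kinesin was called higher in CP and no cargo-transport gene higher in GZ under any of these. Median centring and quantile normalization left the median difference over all genes at 0.045 and 0.049, against 0.051 in the main fit. Both changed the already normalized values little and so were weak checks. Leaving out both libraries numbered 1 gave 1647 calls in favour of GZ and 1716 in favour of CP over all genes, with fewer libraries in the fit. KLC4, not called, changed sign there (-0.082) and, with 1 library left out, ran from -0.022 to 0.19; KIF19, also not called, ran from -0.030 to 0.68. Deviations of same-numbered libraries from their tissue means correlated at -0.38, 0.30 and 0.35 for numbers 1, 2 and 3, and the libraries numbered 2 and 3 correlated best with their own number. Those numbered 1 did not: CP number 1 correlated best with GZ number 2 (0.19) and GZ number 1 with CP number 2 (0.20). As number 1 goes against a pairing, the main fit did not pair the numbers. Gaps given between libraries of one number are descriptions and do not assume a shared animal. The fit with the replicate block called 3300 genes for GZ and 2817 for CP, against 3297 and 2816 without it, and changed no kinesin call. Read depth is unknown, so the precision of low members such as KIF1A, KIF4B and KIF12 could not be given.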

Other observations

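Dynein, the motor that runs towards the minus ends of microtubules, was followed through 24 measured dynein and dynactin genes and regulators. GZ was higher for 4 of them (16.7%) and CP for 5 (20.8%), against 24.5% and 20.9% of all genes tested. One intermediate chain stood far from the rest by value: DYNC1I1, the intermediate chain best known from neurons, had a log2 mean of 6.36 in CP and 2.90 in GZ (difference -3.46 ± 0.13, SE, n = 3 per tissue, limma adjusted p = 9.93e-06). Its paralog DYNC1I2 was 6.95 in CP and 7.10 in GZ and was not called (adjusted p = 0.162). The heavy chain gene DYNC1H1 was 1.21-fold higher in GZ.

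The 2 regulators NDE1 and NDEL1, which tie LIS1 to dynein, were called in opposite directions. NDE1, which acts in dividing progenitors, was 3.14-fold higher in GZ (1.65 ± 0.25, SE, adjusted p = 0.00160), and NDEL1 was 1.35-fold higher in CP (-0.43 ± 0.08, adjusted p = 0.00314). PAFAH1B1, the LIS1 gene, was 1.35-fold higher in CP. Of the cargo adaptors, HOOK1 and HOOK2 were 2.15-fold and 1.76-fold higher in CP, and HOOK3 and BICD2 were 1.33-fold and 1.31-fold higher in GZ.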
